A study of Nicotiana tabacum with 9 samples.

Results

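The expression of 4 tobacco genes, of 69500 in the deposited table, is described here across leaf RNA of 3 plant materials. The genes lie on a pair of genome scaffolds. On scaffold Nitab4.5_0003779 they are Nitab4.5_0003779g0060, described as an E2 ubiquitin-conjugating enzyme, and Nitab4.5_0003779g0110, described as translation initiation factor 1A (eIF-1A). On scaffold Nitab4.5_0002262 they are Nitab4.5_0002262g0150, a second gene with the eIF-1A description, and Nitab4.5_0002262g0160, a basic-leucine zipper (bZIP) gene with a G-box-binding domain. They were picked by identifier because, in earlier results from this table, the genes on scaffold Nitab4.5_0003779 were near 0 in 1 material. Their levels in the materials are therefore given as a description, without a test, and tests are reserved for other genes of the scaffolds and for other genes of the same pathways.

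The study sequenced RNA of tobacco (Nicotiana tabacum) leaf in 9 libraries, 3 each of the materials KY, Y and K326. K326 is a flue-cured tobacco cultivar. The labels give KY and Y as genotypes without saying what they are, name no treatment, age or growth condition, and give each library a replicate number without saying that it came from a separate plant. The p-values therefore measure library-to-library spread, and this may be technical. The title of the series concerns leaf yellowing and a folate synthesis gene, and the comparisons below ask how the materials differ at the 4 genes and around them.

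eIF-1A binds the small ribosomal subunit and, in yeast and mammals, helps it scan a messenger RNA and settle on the start codon. An E2 enzyme receives ubiquitin from an E1 activating enzyme and, with an E3 ligase, passes it to proteins, many of which are then degraded by the proteasome. Plant bZIP factors of the G-box type, studied mostly in Arabidopsis, bind a short promoter element found in many light- and hormone-regulated genes. Tobacco is an allotetraploid formed from a pair of ancestral species, so most genes have a near-identical copy elsewhere in the genome. The value of each copy depends on how reads were divided between copies, and that division was not tested.

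The signal of a library, summed over all genes, was between 551496 and 603165, with 30510 to 33397 genes above 0, and read depth is unknown. Among the KY libraries, replicate 1 was the least typical and correlated best with K326 replicate 3 (r = 0.954 across tested genes, which are not independent replicates). Genes marking leaf, which encode chlorophyll a/b-binding proteins and the small subunit of Rubisco, held 19.3% to 22.2% of the signal in KY, 15.5% to 18.6% in Y and 17.0% to 20.1% in K326, and 7 of these 90 genes were at 0 throughout. The 311 cyclin and histone genes used as markers of dividing cells summed to between 1750 and 3961 in KY, 1839 and 2424 in Y, and 3011 and 5375 in K326, with 46 of them at 0 throughout. The 179 pollen-described genes summed to 609 to 1331 in KY, 770 to 866 in Y and 1078 to 1265 in K326 (67 at 0). The 318 genes with seed protein or cupin 1 descriptions summed to 3549 to 5721, 4322 to 4865 and 5052 to 5374 in that order. Of these, 147 were at 0, and a cupin 1 domain alone does not name seed. In bulk leaf RNA, fewer cells of a type and less RNA per cell cannot be told apart, and the part of these marker differences in the results was not tested.

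The E2 gene on scaffold Nitab4.5_0003779 was abundant in KY and K326 and near 0 in Y. Its signal was 87.1, 124.7 and 91.0 in KY replicates 1 to 3, 0.34, 0.13 and 0.23 in Y, and 108, 103 and 82.0 in K326. The Y libraries lay far below all others, while the KY and K326 libraries overlapped. The means were 101 ± 20.6 in KY, 0.233 ± 0.105 in Y and 97.8 ± 13.9 in K326 (SD, n = 3 each). Among the 140 genes whose description names a ubiquitin-conjugating domain, it ranked 5 by mean signal in KY, 96 in Y and 5 in K326.

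The eIF-1A gene on the same scaffold was also near 0 in Y. Its signal was 66.9, 78.3 and 69.4 in KY, 0.36, 0.14 and 0.18 in Y, and 96.8, 89.0 and 72.4 in K326. Again the Y libraries were apart and the KY and K326 libraries overlapped. The means were 71.6 ± 6.01 in KY, 0.227 ± 0.117 in Y and 86.0 ± 12.5 in K326 (SD, n = 3 each). In both genes the Y values were low but not 0 in any library.

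The eIF-1A copy on scaffold Nitab4.5_0002262 ran the other way and was highest in Y. Its signal was 68.9, 59.3 and 56.2 in KY, 136, 138 and 126 in Y, and 72.7, 61.1 and 63.1 in K326. All 3 Y libraries lay above every KY and K326 library, and KY and K326 overlapped. The means were 61.5 ± 6.64 in KY, 133 ± 6.52 in Y and 65.6 ± 6.18 in K326 (SD, n = 3 each), a ratio of 2.03 for Y over K326 and of 0.462 for KY over Y.

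The bZIP gene next to it by identifier number, Nitab4.5_0002262g0160, separated all 3 materials. Its signal was 3.15, 2.84 and 4.13 in KY, 34.1, 27.5 and 24.01 in Y, and 8.84, 9.70 and 9.27 in K326. No library of 1 material overlapped those of another, with Y highest, K326 between and KY lowest. The means were 3.37 ± 0.673 in KY, 28.5 ± 5.12 in Y and 9.27 ± 0.43 in K326 (SD, n = 3 each). It was the only one of the 4 genes at which KY and K326 did not overlap. The share of all genes that separate KY from K326 in this way is not given here, so nothing is read from that.

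**Figure D1:**
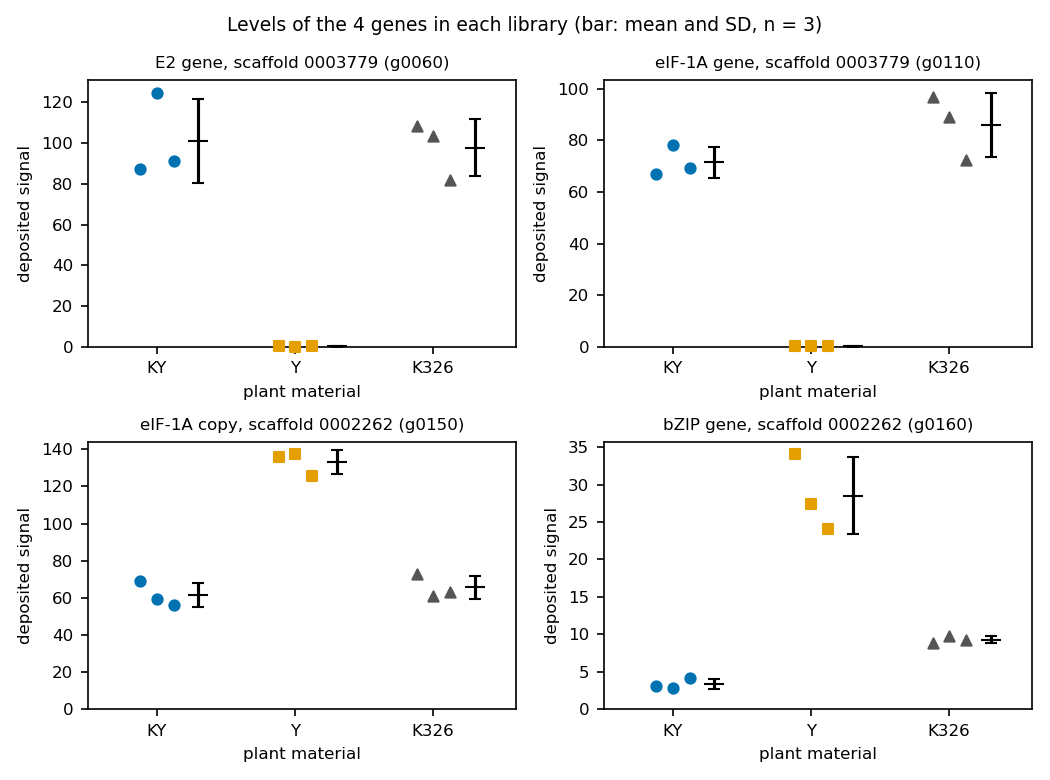
Deposited signal (vertical axis) of the 4 genes in each library of KY, Y and K326 (horizontal axis); points are libraries and bars the mean and SD of 3. Both genes of scaffold Nitab4.5_0003779 lie below 0.4 in every Y library, while the eIF-1A copy and the bZIP gene of scaffold Nitab4.5_0002262 are highest in Y.

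On the log2(signal + 1) scale, Y minus K326 was -6.32 for the E2 gene, -6.14 for eIF-1A on scaffold Nitab4.5_0003779, 1.01 for the eIF-1A copy and 1.51 for the bZIP gene. KY minus K326 was 0.04, -0.26, -0.09 and -1.24 in the same order of genes. KY minus Y was 6.35, 5.89, -1.11 and -2.75. The comparisons share libraries and are not independent. The added 1 understates the differences of the genes near 0: with 0.1 in its place, Y minus K326 was -8.24 for the E2 gene and -8.09 for eIF-1A. Under median-of-ratios scaling, which moved the median KY minus K326 difference of all tested genes to 0.02, against -0.14 as deposited, the small KY minus K326 difference of the eIF-1A copy turned to 0.11. Leaving out KY replicate 1 gave KY means of 108, 73.9, 57.7 and 3.49 for the 4 genes.

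Across the 9 libraries, log2(signal + 1) of the E2 and eIF-1A genes of scaffold Nitab4.5_0003779 correlated at r = 0.999. The eIF-1A copy correlated with eIF-1A of scaffold Nitab4.5_0003779 at r = -0.972 and with the bZIP gene at r = 0.894. These coefficients describe 9 libraries that fall into 3 materials, so they mainly restate the differences between materials.

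Summed over both eIF-1A copies, the signal overlapped between the materials. The sum was 136, 138 and 126 in KY, 136, 138 and 126 in Y, and 169, 150 and 135 in K326. The highest sums were those of K326 replicates 1 and 2. The mean sums were 133 ± 6.45 in KY, 133 ± 6.55 in Y and 152 ± 17.1 in K326 (SD, n = 3 each). The copy on scaffold Nitab4.5_0002262 supplied 43.1% to 50.8% of the sum in KY, 99.7% to 99.9% in Y and 40.7% to 46.6% in K326. In mean signal, Y minus K326 was -85.8 for the copy on scaffold Nitab4.5_0003779 and 67.5 for the copy on scaffold Nitab4.5_0002262. On the log2(signal + 1) scale the sum gave -0.18 for Y minus K326, -0.18 for KY minus K326 and -0.00 for KY minus Y. Under median-of-ratios scaling these became -0.05, 0.02 and 0.08, so the sign of both KY comparisons depends on the scaling.

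The other genes with the eIF-1A description add little signal. Of the 10 genes in all, 5 were at 0 in every library, and 3 remain beside the described pair. The highest value of any of these 3 was 5.71, for Nitab4.5_0006356g0050 in KY replicate 1. That gene averaged 3.36 in KY, 2.93 in Y and 4.04 in K326, and Nitab4.5_0000171g0270 averaged 1.71, 1.77 and 1.94. Neither passed the test in any comparison (limma adjusted p from 0.652 to 0.963). The third, Nitab4.5_0008902g0030, was at 0.32, 0 and 0.31 in KY, 1.53, 1.62 and 0.64 in Y, and 0.28, 0 and 0.28 in K326. Its mean over the 9 libraries was too low for testing, and its Y libraries lay above all others. A wider list, which adds genes with the bacterial-type IF1 domain, held 15 genes beside the described pair, and the same 2 were tested. All 10 eIF-1A genes together summed to 138 in KY, 139 in Y and 158 in K326 on average.

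The E2 gene also has a counterpart on scaffold Nitab4.5_0002262, Nitab4.5_0002262g0120, whose description holds the same terms, but its signal was low. E2 genes on other scaffolds, among them Nitab4.5_0003941g0040, hold the same terms, so the pairing rests on description and scaffold only. The counterpart was at 3.76, 7.82 and 3.01 in KY, 15.1, 19.2 and 6.62 in Y, and 6.02, 9.02 and 4.46 in K326. Y replicate 3 lay among the KY and K326 libraries, so the materials overlapped. Its log2 difference was 0.90 for Y minus K326 (SE 0.42, limma adjusted p = 0.425) and -1.29 for KY minus Y (SE 0.42, limma adjusted p = 0.231). Over the alternatives, the adjusted p for Y minus K326 ranged from 0.156 to 0.782.

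Unlike the eIF-1A sum, the sum of the E2 gene and this counterpart was far lower in Y. The sum was 90.9, 132 and 94.0 in KY, 15.5, 19.3 and 6.85 in Y, and 114, 112 and 86.5 in K326. The Y sums did not overlap the others. The mean sums were 106 ± 23.2 in KY, 13.9 ± 6.37 in Y and 104 ± 15.4 in K326 (SD, n = 3 each), and Y over K326 was 0.133. The counterpart supplied 3.20% to 5.90% of the sum in KY, 96.6% to 99.3% in Y and 5.16% to 8.04% in K326. In mean signal, Y over K326 was 2.10 for the counterpart alone, near the 2.03 of the eIF-1A copy. The counterpart's libraries overlapped between materials, however, and it held a far smaller part of its sum in K326 than the eIF-1A copy did. As the sums include the genes chosen for their pattern, they are a description, and whether the eIF-1A and E2 sums differ in their response was not tested.

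**Figure D2:**
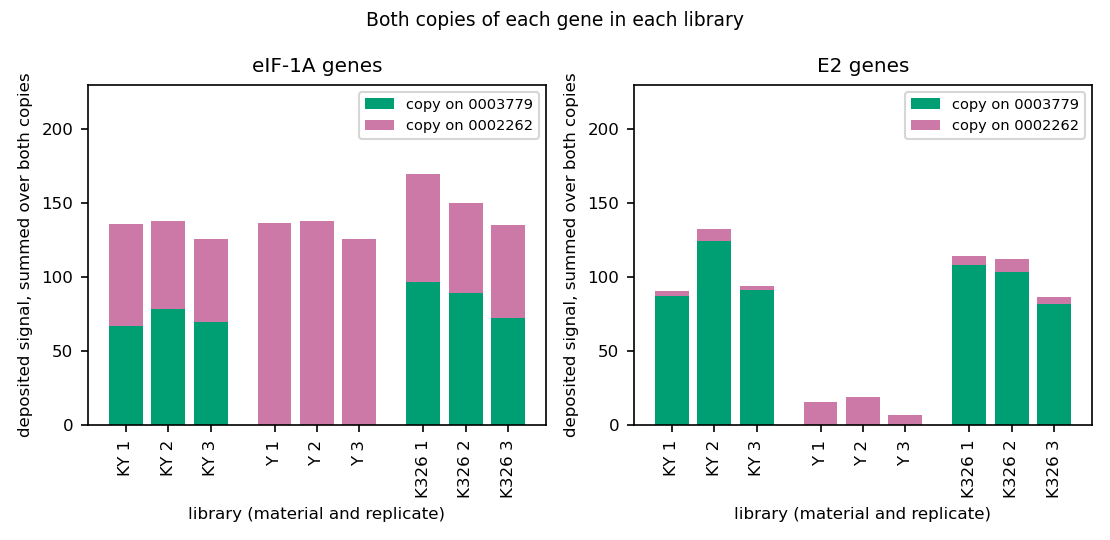
Stacked bars of the deposited signal of both eIF-1A genes (left) and of the E2 gene with its counterpart by description (right) in each library, coloured by scaffold. The eIF-1A bars reach 126 to 138 in Y with nearly all signal from scaffold Nitab4.5_0002262, while the E2 bars in Y stay at 6.85 to 19.3.

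The scaffolds resemble each other in gene content. Scaffold Nitab4.5_0003779 lists 20 genes with 16 distinct descriptions besides Unknown, and 6 of these descriptions recur, term for term, among the 17 genes of scaffold Nitab4.5_0002262. No other of the 12822 scaffolds in the table shared more than 3. The recurring descriptions are a GDSL lipase, a late embryogenesis abundant LEA-14 protein, the E2 enzyme, eIF-1A, a heavy metal-associated (HMA) domain protein and a WRKY transcription factor. The bZIP gene also has a partial counterpart, Nitab4.5_0003779g0050, which shares its G-box-binding terms without the bZIP one. That gene was at 0 in all KY libraries and at most at 0.2 in any other. Shared descriptions are not an alignment, and the order of the recurring genes by identifier number differs between the scaffolds.

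Other genes of scaffold Nitab4.5_0003779 were also at 0 in Y. Of its 18 other genes, 5 had a mean of at least 1 and were tested. In Y against K326, 3 of the 5 fell and 0 rose, where 1.21% of all 16348 tested genes fell and 1.99% were called in either direction (limma, Benjamini-Hochberg adjusted p below 0.05). In KY against Y, 3 of the 5 were higher in KY, where 0.483% of all tested genes were higher and 1.30% were called. In KY against K326, 0 of the 5 were called by limma and 0 had an unadjusted p below 0.05, where 0.789% of all tested genes were called, 0.232% higher and 0.557% lower. The materials were compared over the same libraries, so these counts are not independent of each other.

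Nitab4.5_0003779g0010, a gene of unknown function, had the largest signal among the other genes of this scaffold. It was at 107.7, 53.5 and 75.2 in KY, at 0 in all 3 Y libraries, and at 95.3, 88.6 and 74.9 in K326. Y was apart from both other materials, which overlapped. It fell in Y, with Y minus K326 at -6.44 (SE 0.24, limma adjusted p = 1.97e-06). KY minus Y was 6.26 (SE 0.24, limma adjusted p = 4.38e-06), and KY minus K326 was -0.18 (SE 0.24, limma adjusted p = 0.795).

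Nitab4.5_0003779g0130, which encodes a DUF2358 protein, was at 14.5, 43.4 and 37.1 in KY, at 0 in all 3 Y libraries, and at 22.1, 26.3 and 20.2 in K326. It fell in Y, with Y minus K326 at -4.57 (SE 0.35, limma adjusted p = 0.000126). KY minus K326 was 0.32 (SE 0.35, limma adjusted p = 0.749), but without KY replicate 1, its lowest KY library, the difference was 0.79 (limma adjusted p = 0.0436). Nitab4.5_0003779g0040, of unknown function, was at 5.72, 5.55 and 4.44 in KY, at 0 in all 3 Y libraries, and at 5.67, 4.08 and 4.60 in K326. It fell in Y, with Y minus K326 at -2.52 (SE 0.17, limma adjusted p = 4.75e-05). The falls of all 3 genes in Y were kept under every alternative in which they were tested.

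Not every gene of the scaffold was lower in Y. The HMA gene Nitab4.5_0003779g0140 was at 15.3, 17.7 and 14.5 in KY, 23.1, 21.2 and 22.2 in Y, and 19.0, 15.8 and 16.7 in K326. Its Y libraries lay above all others, but the difference of 0.35 from K326 on the log2 scale did not pass the test (SE 0.14, limma adjusted p = 0.359). The mitogen-activated protein kinase gene Nitab4.5_0003779g0160 was at 7.87, 10.7 and 8.79 in KY, 8.30, 8.09 and 9.25 in Y, and 12.3, 12.2 and 7.15 in K326. The materials overlapped (Y minus K326 -0.24, SE 0.22, limma adjusted p = 0.693).

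The 13 untested genes of scaffold Nitab4.5_0003779 had low signal. The fatty acid desaturase gene Nitab4.5_0003779g0120, whose family inserts double bonds into lipids, was at 0.78, 0.54 and 1.5 in KY, at 0 in all 3 Y libraries, and at 1.16, 1.21 and 0.79 in K326. The ARID/ELM2 DNA-binding gene Nitab4.5_0003779g0070 lies by number between the E2 and eIF-1A genes. It was at 0.62, 0.74 and 0.69 in KY, 0.63, 0.42 and 0.62 in Y, and 0.55, 0.75 and 0.61 in K326, so the materials overlapped at a low level. A pectin lyase-fold gene (g0090) and a family 18 glycoside hydrolase gene (g0100) were also above 0 in 2 of 3 Y libraries, at most at 0.17 and 0.31. Values this low say little about whether a gene is present in Y. In all, 17 of the 20 genes were above 0 in some library, and 6 of them were above 0 in K326 and at 0 in every Y library. Among these 6, g0030 reached at most 0.18 and g0080 at most 0.28 in K326, where a 0 in Y says little. The share of all genes that meet this criterion is not given here.

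**Figure D3:**
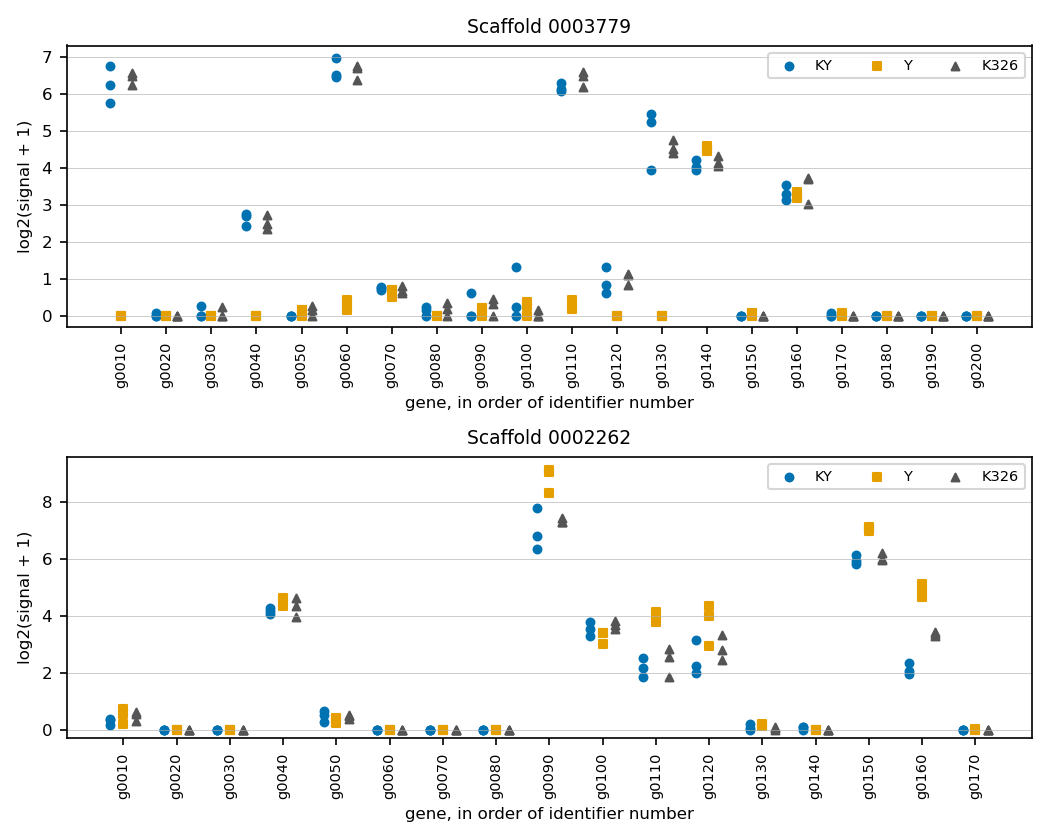
Signal of every gene of scaffold Nitab4.5_0003779 (top) and scaffold Nitab4.5_0002262 (bottom) as log2(signal + 1) on the vertical axis, in order of identifier number on the horizontal axis; each point is a library of KY, Y or K326. On scaffold Nitab4.5_0003779, Y lies at or near 0 at g0010, g0040, g0060, g0110 and g0130 and beside the other materials at g0140 and g0160.

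Scaffold Nitab4.5_0002262 had 15 other genes, of which 5 were tested. In Y against K326, 1 of the 5 rose and 0 fell, where 0.777% of all tested genes rose. In KY against Y, 2 of the 5 were lower in KY, where 0.814% of all tested genes were. In KY against K326, limma called 0 of the 5, where it called 0.789% of all tested genes, and 0 had an unadjusted p below 0.05. None of its genes was above 0 in K326 and at 0 in every Y library, a criterion without a floor on signal.

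The gene that rose, Nitab4.5_0002262g0110, belongs to the GH3 family, whose members in Arabidopsis join amino acids to auxin and other hormones. It was at 3.44, 2.61 and 4.72 in KY, 16.6, 12.9 and 14.8 in Y, and 6.07, 2.61 and 4.84 in K326. Y lay above both other materials, which overlapped. Y minus K326 was 1.56 (SE 0.27, limma adjusted p = 0.0213). It no longer passed when K326 replicate 2 or 3, or any 1 Y library, was omitted (limma adjusted p from 0.0538 to 0.112). KY minus Y was -1.80 (SE 0.27, limma adjusted p = 0.0135), lost without Y replicate 1 (limma adjusted p = 0.0794).

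Nitab4.5_0002262g0090, of unknown function, had the highest signal of either scaffold. It was at 223, 112 and 80.0 in KY, 525, 564 and 316 in Y, and 173, 158 and 158 in K326. Y lay above both other materials. KY minus Y was -1.84 (SE 0.36, limma adjusted p = 0.0483), which passed in 7 of 18 alternatives. Of the fits without 1 library, only those without KY replicate 1 or Y replicate 3 kept it. The others lost it, with a limma adjusted p up to 0.198 (without Y replicate 1). Y minus K326 was 1.48 (SE 0.36, limma adjusted p = 0.101), and it passed in 3 alternatives, among them the omission of KY replicate 1 (limma adjusted p = 0.0165).

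The remaining tested genes of scaffold Nitab4.5_0002262 did not pass in any comparison. The HMA gene Nitab4.5_0002262g0040 averaged 16.9 in KY, 22.0 in Y and 19.2 in K326. Nitab4.5_0002262g0100, of unknown function, averaged 10.8 in KY, 8.69 in Y and 11.8 in K326. Their limma adjusted p ranged from 0.407 to 0.802.

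Of 88 tested genes named as translation initiation factors, the described genes left out, 1 rose and 1 fell in Y against K326, a share of 2.27% that lies near the 1.99% of all tested genes. At an unadjusted p below 0.05, 2 were higher and 10 lower in Y. Their median log2 difference was -0.18, against -0.08 over all tested genes. Without KY replicate 1, 4 were called. The share of all tested genes at the unadjusted cut is not given here. Nothing is therefore read from the unadjusted counts of this list or of those below. The gene that fell, Nitab4.5_0012487g0010, encodes a subunit H of eIF3, the complex that organises the initiation machinery on the small ribosomal subunit. It was at 9.75, 5.35 and 6.44 in KY, 0, 0.05 and 0 in Y, and 9.39, 7.33 and 8.13 in K326, near 0 in Y and overlapping between KY and K326. Y minus K326 was -3.19 (limma adjusted p = 4.30e-05) and KY minus Y was 2.97 (limma adjusted p = 0.000144).

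The gene that rose, Nitab4.5_0006512g0010, is described both as a putative initiation factor and as methylthioribose-1-phosphate isomerase, an enzyme of methionine salvage. It was at 1.43, 1.76 and 0.78 in KY, 12.2, 13.4 and 12.01 in Y, and 1.69, 1.17 and 1.19 in K326, with Y minus K326 at 2.53 (limma adjusted p = 0.00013). In KY against K326, limma called 0 of the 88, where it called 0.789% of all tested genes, and 1 was higher and 4 lower at an unadjusted p below 0.05. In KY against Y, the 2 called (2.27%, against 1.30% of all tested genes) were the eIF3 subunit H gene, higher in KY, and the isomerase gene, lower in KY. The 3 listed genes with the highest signal are described mainly as elongation factor EF-Tu. Of these, Nitab4.5_0008125g0010 averaged 321 in KY, 290.0 in Y and 291 in K326, and none of the 3 passed in any comparison. Ranked among all 221 listed genes by mean signal, the eIF-1A copy stood 15 in KY, 7 in Y and 17 in K326, and the eIF-1A gene of scaffold Nitab4.5_0003779 stood 14, 117 and 12.

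Translation elongation factors were a second list of the same machinery. It shares genes with the initiation factor list, among them the EF-Tu genes above, so the counts of these lists are not independent. Of 75 tested, 1 rose and 2 fell in Y against K326 (4% against 1.99% of all tested genes), and 1 rose and 1 fell in KY against K326 (2.67% against 0.789%). The count in Y against K326 was 6 without KY replicate 1, and 1 without Y replicate 1 or any 1 K326 library. The count in KY against K326 was 1 without any 1 K326 library. In KY against Y, limma called 0, where it called 1.30% of all tested genes, and 6 were higher and 2 lower at an unadjusted p below 0.05. An elongation factor 4 gene, Nitab4.5_0001663g0160, of a family that in bacteria moves stalled ribosomes back, rose in both, to 177 in KY and 155 in Y, against 79.4 in K326. Y minus K326 was 0.96 (limma adjusted p = 0.00969), lost without Y replicate 1 (limma adjusted p = 0.064), and KY minus K326 was 1.16 (limma adjusted p = 0.00559). A second gene with the elongation factor 4 description, Nitab4.5_0000147g0070, fell in both and was near 0 there, at 0.243 in KY and 0.217 in Y, against 2.57 in K326. Y minus K326 was -1.55 (limma adjusted p = 0.00414), and KY minus K326 was -1.52 (limma adjusted p = 0.00843), lost with 0.1 in place of 1 (limma adjusted p = 0.0767). The call on an EF-G/EF2-type gene, Nitab4.5_0012668g0010, at 0.66 in Y against 2.21 in K326 (limma adjusted p = 0.0213), was lost without any 1 K326 or Y library.

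Of 74 other tested E2 genes, limma called 0 in any of the 3 comparisons, where it called 1.99% of all tested genes in Y against K326, 0.789% in KY against K326 and 1.30% in KY against Y. Such shares amount to about 1 gene in a list of this size. Leaving out 1 library or the filter on low values gave at most 1 call. At an unadjusted p below 0.05, 4 were higher and 2 lower in Y against K326, 2 higher and 6 lower in KY against K326, and 2 higher and 5 lower in KY against Y. The medians were -0.03, -0.15 and -0.14, against -0.08, -0.14 and -0.05 over all tested genes. The E2 gene with the highest signal, Nitab4.5_0003941g0040, averaged 299 ± 112 in KY, 316 ± 56.5 in Y and 323 ± 62.0 in K326 (SD, n = 3 each). The next by signal, Nitab4.5_0003194g0080 and Nitab4.5_0000269g0130, averaged 250 and 125 in KY, 232 and 147 in Y, and 232 and 153 in K326. Summed over all 140 listed genes, the signal was 2313 ± 474 in KY, 2391 ± 264 in Y and 2474 ± 340 in K326, so the materials differed by less than the spread between libraries.

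In the neighbouring steps of the ubiquitin pathway, the calls were near the share over all genes or too few to compare with it. Of 4 tested E1 genes, limma called 0 in any comparison, and 1 was lower in Y than in K326 at an unadjusted p below 0.05. Of 80 tested proteasome genes, 1 rose in Y against K326 and 0 fell (1.25%, against 1.99% of all tested genes). In KY against K326, 0 were called, where 0.789% of all tested genes were, or 3 without KY replicate 1. In that comparison 1 was higher and 3 lower at an unadjusted p below 0.05. The gene that rose, Nitab4.5_0002108g0070, encodes UMP1, a proteasome assembly factor. It was at 7.87, 6.68 and 6.80 in KY, 17.8, 16.2 and 16.5 in Y, and 8.05, 5.6 and 5.1 in K326, with Y minus K326 at 1.32 (limma adjusted p = 0.00503). It was also the 1 proteasome gene called in KY against Y (1.25%, against 1.30% of all tested genes), at -1.14 (limma adjusted p = 0.0163). That call needed each of KY replicate 3, Y replicate 1 and Y replicate 2 (limma adjusted p from 0.0578 to 0.09 without 1 of them).

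Among the other bZIP genes, 62 were tested. In Y against K326, 1 rose and 0 fell (1.61%, against 1.99% of all tested genes). In KY against K326, 1 rose and 0 fell (1.61% against 0.789%), and 2 were higher and 11 lower at an unadjusted p below 0.05. In KY against Y, 2 were lower and 0 higher (3.23% against 1.30%). Without KY replicate 1, the count in KY against K326 was 4. The gene that rose in both, Nitab4.5_0000188g0190, was at 3.01, 2.82 and 3.61 in KY, 2.38, 2.19 and 4.32 in Y, and was listed at 0 in all 3 K326 libraries (limma adjusted p = 0.00202 for KY and 0.00169 for Y). Nitab4.5_0002543g0050, which was lower in KY than in Y, averaged 2.58 in KY, 9.75 in Y and 7.09 in K326 (KY minus Y -1.60, limma adjusted p = 0.0161). Leaving out KY replicate 3, Y replicate 1 or Y replicate 3 ended that call (limma adjusted p from 0.0553 to 0.0879). Nitab4.5_0005756g0030 averaged 2.43 in KY, 6.90 in Y and 4.5 in K326, and its call in KY against Y (limma adjusted p = 0.0421) was lost in 12 of 17 alternatives, 7 of which left out 1 library. Of the 3 other tested G-box-binding genes, limma called 0 in any comparison, and 1 was lower in KY than in K326 at an unadjusted p below 0.05.

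**Figure D4:**
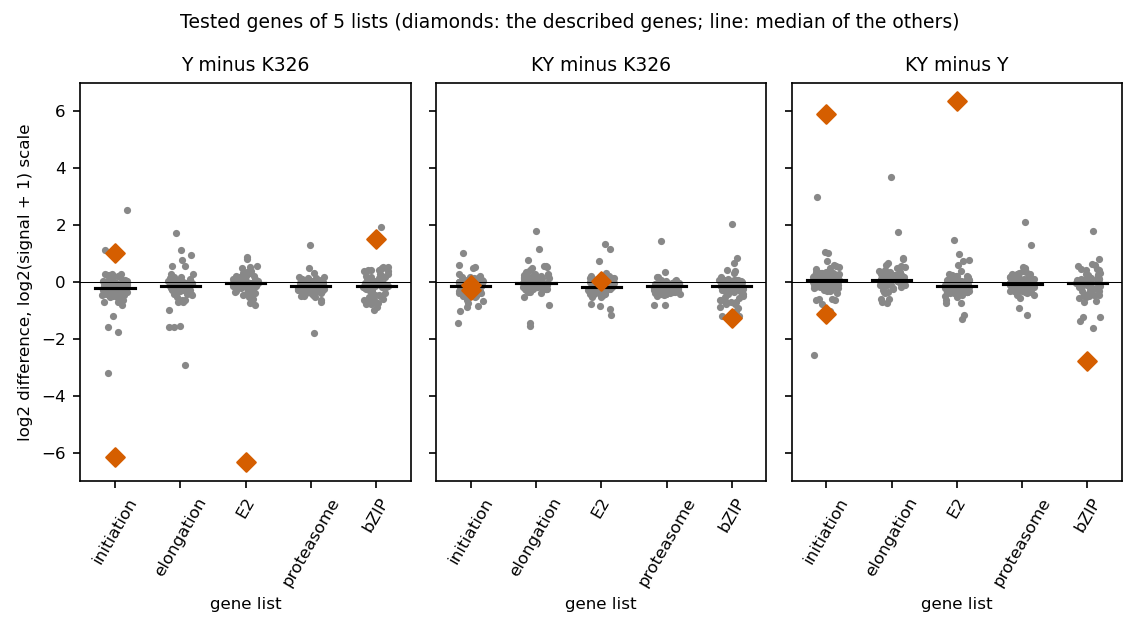
Log2 differences on the log2(signal + 1) scale (vertical axis) of tested genes in 5 lists (horizontal axis) for each comparison of KY, Y and K326; grey points are genes, lines the median of the genes not described here, and diamonds the described genes. The list medians lie between -0.18 and 0.09, while the described genes of scaffold Nitab4.5_0003779 lie at -6.32 and -6.14 in Y minus K326.

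A small number of genes elsewhere in the table ran most closely with the described genes over the 9 libraries. They were found by the correlation itself and are listed without a test. Nearest to both genes of scaffold Nitab4.5_0003779 was a class III aminotransferase gene, Nitab4.5_0002232g0040 (r = 0.999 with each). It was at 25.1, 36.0 and 27.8 in KY, 0.24, 0.09 and 0 in Y, and 34.7, 30.5 and 25.5 in K326. A pentatricopeptide-repeat gene, Nitab4.5_0002023g0010 (r = 0.998 with each), averaged 5.81 in KY and 6.22 in K326 and was at 0 in all Y libraries.

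Next came a leucine-rich repeat kinase gene, Nitab4.5_0012487g0030 (r = 0.995 with E2 and 0.996 with eIF-1A), at 11.3 in KY, 0.00667 in Y and 11.4 in K326. It lies on the same 3-gene scaffold as the eIF3 subunit H gene above. A PHD and RING finger gene, Nitab4.5_0000089g0090 (r = 0.997 with E2), averaged 12.3 in KY, 1.65 in Y and 11.1 in K326. A DUF3128 gene, Nitab4.5_0002781g0010 (r = 0.996 with E2), averaged 13.1 in KY and 13.4 in K326 and was at 0 in Y. Nearest to eIF-1A were also Nitab4.5_0006630g0030, of unknown function (r = 0.997), and the scaffold neighbour Nitab4.5_0003779g0010 (r = 0.995).

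The eIF-1A copy ran most closely with a gene described as a plant disease resistance response protein, Nitab4.5_0000956g0090 (r = 0.991), which averaged 17.7 in KY, 43.9 in Y and 19.5 in K326. A manganese/iron superoxide dismutase gene, Nitab4.5_0002279g0090 (r = 0.986), was at 0 in KY, 6.56 in Y and 0.15 in K326. The isomerase gene Nitab4.5_0006512g0010 above followed (r = 0.986), then a mitochondrial porin-type gene, Nitab4.5_0000002g0440 (r = 0.981), at 17.1 in KY, 72.3 in Y and 20.1 in K326. The last was Nitab4.5_0000309g0300, related to a mitochondrial transcription termination factor (r = 0.979), at 3.26 in Y and at 0 in every KY and K326 library.

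The bZIP gene ran most closely with genes that were likewise highest in Y and lowest in KY. Nitab4.5_0000559g0020, of unknown function (r = 0.979), averaged 1.48 in KY, 4.65 in Y and 2.72 in K326. A RING finger gene, Nitab4.5_0004599g0020 (r = 0.971), averaged 4.62 in KY, 10.4 in Y and 7.01 in K326. A short-chain dehydrogenase gene, Nitab4.5_0006013g0030 (r = 0.966), averaged 8.56 in KY, 23.98 in Y and 14.7 in K326. Nitab4.5_0019108g0010 and Nitab4.5_0004359g0010, both of unknown function, had r = 0.964.

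A near-0 level in Y was rare among genes abundant in K326. Of 5425 genes with a mean of at least 10 in K326, 35 (0.645%) had a mean below 1 in Y and 22 (0.406%) below 1 in KY. The reverse was rarer: 6 of 5206 such genes of Y (0.115%) and 4 of 5049 of KY (0.0792%) were below 1 in K326. Between the other materials, 19 of the KY genes (0.376%) were below 1 in Y, and 11 of the Y genes (0.211%) below 1 in KY. The cause of this imbalance was not tested. The E2 and eIF-1A genes of scaffold Nitab4.5_0003779 are among the 35, with g0010 and g0130 beside them, and these 4 were the most on any single scaffold. Of the 35 genes, 17 had a mean of at least 10 in KY, 16 were below 1 in KY and 2 were between. Since the described genes were chosen for this pattern, the counts show how common it is and test nothing.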

How the data were processed

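The authors deposited 1 table of a signal per gene and library that is not named as a unit in its header; per the submitters' processing notes HISAT2, StringTie and RSEM were used, without their roles or versions, and neither genome build nor counting options are stated. In all, 586 genes were above 0 in 3 to 5 libraries with values within 1.5 times of each other. Their typical value ran from 0.02 at the 5th percentile to 1.36 at the 95th. This spread may reflect abundance as well as a per-length scale, so it does not settle the unit. Levels and sums across genes are on the deposited scale. The authors' 3 mean columns equalled the library means within 3.33e-06 and were not used. Genes are named by the deposited descriptions; 0 identifiers matched the 79372 genes of the RefSeq table, so no symbols, coordinates or sequences are given.

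Values were taken as log2(value + 1). Since the table holds no counts, limma 3.58.1 (R 4.3.3; moderated by empirical Bayes along a trend) was fitted to all 9 libraries over the 16348 genes whose mean reached 1, with Benjamini-Hochberg adjustment over all of them and a threshold of 0.05. The fit was checked on simulated data in which a gene had the same spread in every material. That check does not cover genes without any signal in 1 material. The 4 genes, the 8 lists (patterns in the descriptions) and the tests were chosen with earlier results of these data known. Named genes are the 4 genes, all genes of both scaffolds, all eIF-1A genes, the 5 genes most correlated with each of the 4, up to 3 called genes per list and comparison with the smallest adjusted p, and the 3 E2 and initiation factor genes with the highest mean; gene names outside this rule were chosen after their values were seen. Alternatives changed the pseudocount, filter, scaling, trend, libraries fitted and replicate block, or left out 1 library.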

Additional observations from a re-analysis of the deposited data

How the results depend on the processing

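The number of called genes depended on the processing. The 325 genes called for Y minus K326 became 156 with a mean of at least 5 and 211 with a replicate block, and ranged from 176 to 450 when 1 library was left out. The 129 genes for KY minus K326 became 60 and 85, and ranged from 69 to 646, the highest without KY replicate 1. The 212 genes for KY minus Y became 127 and 134, 127 when only the 2 materials compared were fitted, and ranged from 112 to 307. Median-of-ratios scaling gave 49 higher and 70 lower genes for KY minus K326, against 38 and 91 as deposited. Same-numbered libraries did not vary together (r from -0.166 to 0.177), so the numbers were not taken as pairs; with the replicate block the calls of Nitab4.5_0000147g0070 (KY minus K326), Nitab4.5_0012668g0010 (Y minus K326, limma adjusted p = 0.0939), Nitab4.5_0002543g0050 and Nitab4.5_0005756g0030 (KY minus Y, the last at limma adjusted p = 0.0966) were lost, and no other call named in the text.

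Of 9 calls on other genes of the scaffolds, 6 were kept under every alternative, and 9 of 15 calls on list genes were. For the E2 gene, Y minus K326 was -8.24 and -7.07 and KY minus Y 8.27 and 7.10 with pseudocounts of 0.1 and 0.5. For eIF-1A on scaffold Nitab4.5_0003779 they were -8.09 and -6.90, and 7.83 and 6.64. For the bZIP gene, a pseudocount of 0.1 gave -1.45 for KY minus K326 and -3.04 for KY minus Y. Median-of-ratios scaling gave, for KY minus K326, -0.05 for eIF-1A on scaffold Nitab4.5_0003779, 0.11 for its copy and -1.06 for the bZIP gene, and 1.14 for the copy in Y minus K326. The summed eIF-1A copies became -0.05, 0.02 and 0.08 under it in the same order of comparisons as the counts above. The cause of these changes was not tested. Read depth is unknown, so a listed 0 does not exclude transcripts.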

Other observations

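On 3 other scaffolds there were also at least 2 genes with a mean of at least 10 in K326 and below 1 in Y, and their KY levels were unlike those of scaffold Nitab4.5_0003779. On scaffold Nitab4.5_0000826, with 31 genes listed, the 3 such genes include a Brix-domain ribosome biogenesis gene, Nitab4.5_0000826g0070, at 0.05 in KY, 0.02 in Y and 17.1 in K326. On scaffold Nitab4.5_0000586, with 15 genes listed, a villin/gelsolin gene, Nitab4.5_0000586g0070, was at 0.02 in KY, 0.0167 in Y and 19.9 in K326. On scaffold Nitab4.5_0008674, with 3 genes listed, an ataxin-2 domain gene, Nitab4.5_0008674g0020, was at 0.0633 in KY, 0.0633 in Y and 17.9 in K326. All 7 such genes of these 3 scaffolds were near 0 in KY as well as in Y, whereas the 4 of scaffold Nitab4.5_0003779 had KY means of 31.6 to 101. These genes were chosen after their values were seen, and no test was made. The cut at 10 in K326 leaves out scaffold Nitab4.5_0012487, whose 2 tested genes were near 0 in Y but not in KY. Its eIF3 subunit H gene averaged 7.18 in KY, 0.0167 in Y and 8.28 in K326. Its leucine-rich repeat kinase gene averaged 11.3, 0.00667 and 11.4, so the pattern is not particular to scaffold Nitab4.5_0003779.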
